A study of Mus musculus with 5 samples.

Results

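The levels of 10 heat shock chaperone genes were followed across all arrays of the series: Hspb1, Hspa1a, Hspa8, Hsph1, Dnajb1, Dnaja1, Hsp90aa1, Hspe1, Hspd1 and Bag3. They are 10 of the 19937 genes that the arrays measured with a probe set annotated to a single symbol, and where a gene had several such probe sets the one of highest average signal stood for it. The set was drawn up around Hspb1 with the difference between the groups already known, so the levels and differences of these 10 genes are a description and carry no test. RNA came from CD45+CD3+CD4+ T cells with little surface CD44, sorted from mouse colon lamina propria, which lies beneath the gut lining. The 3 conditional arrays are from CD4cre/Cnb1flox mice and the 2 control arrays from CD4neg/Cnb1flox mice, which the labels also call WT. Both groups therefore carry the floxed Cnb1 allele (Ppp3r1, calcineurin's regulatory subunit), and only the conditional mice carry the Cre, which the CD4 driver directs to the T cell lineage. Calcineurin is a phosphatase that calcium switches on and that moves NFAT factors to the nucleus after antigen receptor engagement. The series describes 3 experiments of 3 to 5 mice in each group; whether an array holds 1 mouse or a pool is not given, so the p-values below measure only the spread between these arrays, which may be technical.

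Chaperones bind unfolded or partly folded proteins and keep them from clumping until they fold. HSP70 proteins do this in cycles of ATP use that J-domain (HSP40) proteins start and that exchange factors such as BAG and HSP110 proteins reset, HSP90 finishes the folding of kinases and receptors, the HSP60 and HSP10 pair forms the folding chamber of mitochondria, and small heat shock proteins hold unfolded proteins without ATP. Many of these genes are switched on together by the transcription factor HSF1 when heat, oxidation or other damage unfolds proteins, whereas relatives such as Hspa8 are made at a high level all the time. In tissue work the same genes, with immediate-early genes such as Fos, are also known to respond to the handling of cells.

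The control arrays differed from each other in the signal of cell type markers. The summed linear signal of 10 T cell marker genes was 25451, 26190 and 29147 on conditional replicates 1, 2 and 3, 31475 on control replicate 2, and 4847 on control replicate 1. The summed signal of 18 epithelial markers lay between 4412 and 5892 on the conditional arrays, at 7421 on control replicate 2 and at 26112 on control replicate 1, and that of 10 stromal markers lay between 8217 and 18166, at 18987 and at 45421 in the same order. No marker was at 0, which robust multi-array averaging (RMA) does not give, and no call against background was available. Control replicate 1 was thus the array that stood apart, and each member is given against each control alone. In sorted bulk samples, fewer cells of a type and less RNA per cell cannot be told apart. The median signal of an array was between 7.12 and 7.23 on the log2 scale. The targeted gene Ppp3r1 was at 8.64, 8.83 and 8.77 on the conditional arrays and at 8.99 and 8.60 on the controls, and whether its probe set lies in the deleted part is not given in the sources used here.

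Hspb1 encodes HSP25 (HSP27 in human), a small heat shock protein that also binds the actin skeleton. Its log2 signal was 9.46, 9.04 and 8.62 on conditional replicates 1, 2 and 3, and 11.50 and 11.59 on control replicates 1 and 2. The groups did not overlap, and the nearest conditional and control values were 2.04 apart. The conditional mean was 9.04 ± 0.423 (SD, n = 3) against 11.54 ± 0.0607 (SD, n = 2), a difference of -2.50 ± 0.262 (SE), which is 5.67-fold lower. Against control replicate 1 alone the fold was 5.50 and against control replicate 2 alone it was 5.84, so the controls gave nearly the same value for this gene. The part of cell composition in that value was not tested. A further Hspb1 probe set read 9.22, 8.90 and 8.65 on the conditional arrays and 11.20 and 11.26 on the controls, with a difference of -2.30. Within the conditional group Hspb1 spread more than most genes, with an SD above that of 97.0 percent of all genes.

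**Figure D1:**
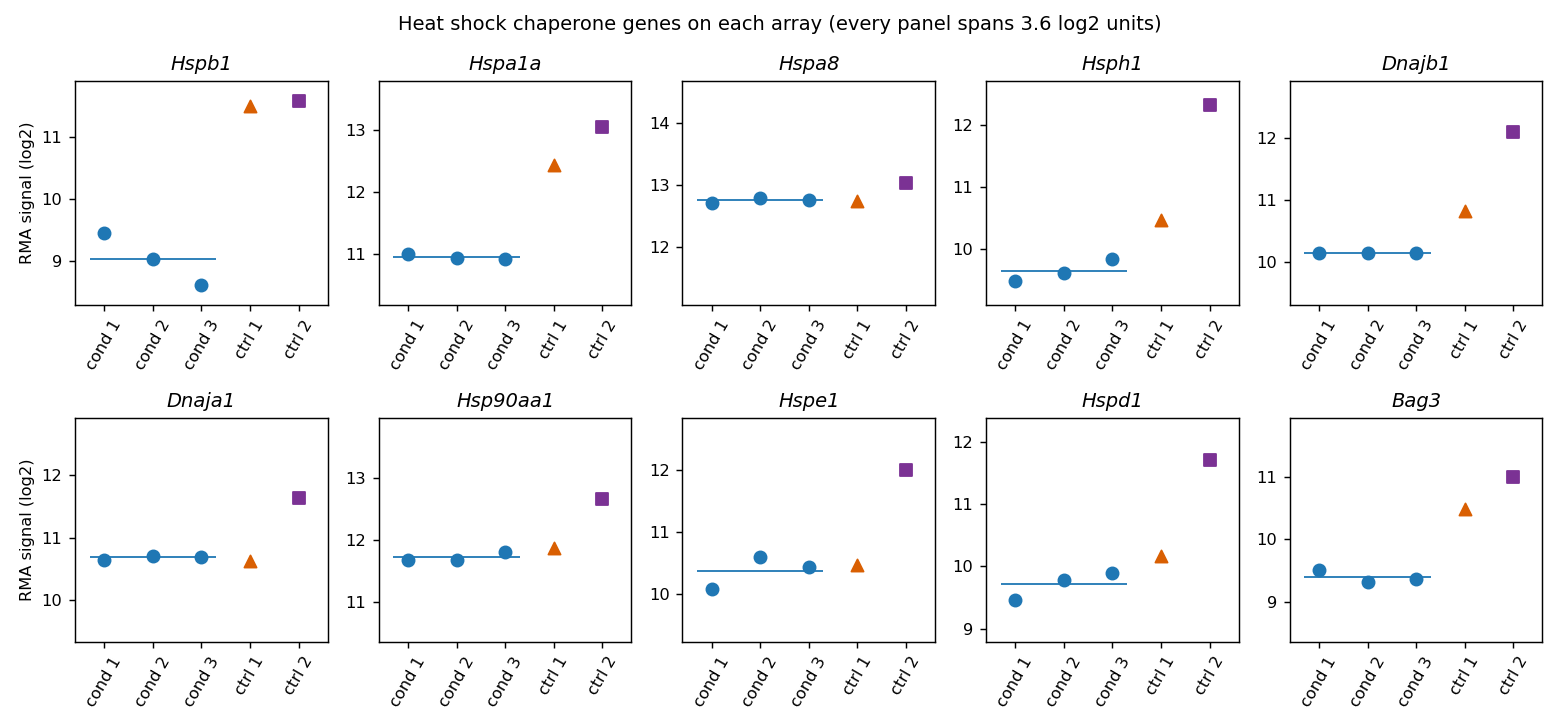
RMA signal (log2, vertical axis) of the 10 chaperone genes on each of the 5 arrays; circles are the 3 conditional arrays, with a line at their mean, the triangle is control replicate 1 and the square control replicate 2. The square is the highest point in all 10 panels, and the triangle lies with the square only for Hspb1 (11.50 and 11.59), between the square and the circles for genes such as Hspa1a and Bag3, and among or just under the circles for Hspa8, Dnaja1 and Hspe1.

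The HSP70 machine held both the second largest difference of the 10 and the smallest. Hspa1a, the stress-inducible HSP70, read 11.00, 10.93 and 10.92 on the conditional arrays and 12.43 and 13.05 on control replicates 1 and 2. Its 3 conditional values lay within 0.1 of each other and well below both controls, with a difference of -1.78 ± 0.202 (SE), 3.44-fold lower. Hspa1b, its near-identical neighbour, was not analysed here, and because of that likeness the Hspa1a probe set may read both genes. Hspa8, the constitutive HSP70 that also uncoats clathrin vesicles, read 12.72, 12.79 and 12.76 against 12.74 and 13.03. Control replicate 1 fell among the conditional arrays and only control replicate 2 was higher, by 0.27, giving a difference of -0.13 ± 0.128 (SE).

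Hsph1 encodes HSP110, the nucleotide exchange partner of HSP70. It read 9.49, 9.62 and 9.84 on the conditional arrays, 10.46 on control replicate 1 and 12.32 on control replicate 2. The groups did not overlap, but the controls were 1.85 apart, so the difference of -1.74 ± 0.548 (SE) averages 1.76-fold lower against control replicate 1 with 6.36-fold lower against control replicate 2. Bag3, the exchange factor that hands HSP70 clients to autophagy and works with small heat shock proteins, read 9.52, 9.31 and 9.36 against 10.48 and 11.01. Bag3 was lower by 1.09 against control replicate 1 and by 1.61 against control replicate 2, and its difference was -1.35 ± 0.188 (SE), 2.55-fold lower.

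Dnajb1 and Dnaja1 are J-domain proteins, which bring clients to HSP70 and start its ATP cycle; Dnajb1 is the stress-inducible form. Dnajb1 read 10.14, 10.15 and 10.15 on the conditional arrays, with an SD of 0.00526 that is lower than in all but 0.166 percent of genes, and 10.83 and 12.09 on the controls. Its difference was -1.31 ± 0.373 (SE), made up of -0.68 against control replicate 1 and -1.94 against control replicate 2. Dnaja1 read 10.65, 10.71 and 10.69 against 10.63 and 11.63, so that control replicate 1 was slightly below all conditional arrays and control replicate 2 was 0.95 above their mean. Its difference was -0.45 ± 0.304 (SE).

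Hsp90aa1, the inducible cytosolic HSP90, read 11.68, 11.68 and 11.80 on the conditional arrays and 11.87 and 12.65 on the controls. The groups did not overlap, though the gap was only 0.063, and the difference was -0.54 ± 0.248 (SE), made up of -0.15 against control replicate 1 and -0.93 against control replicate 2. Hspd1 and Hspe1 encode HSP60 and HSP10, the barrel and lid of the mitochondrial chaperonin. Hspd1 read 9.47, 9.78 and 9.90 against 10.17 and 11.72, and Hspe1 read 10.09, 10.59 and 10.43 against 10.46 and 11.99. Both were highest on control replicate 2, where the conditional mean was 4.01-fold and 3.07-fold lower, while against control replicate 1 Hspd1 was lower by 0.46 and Hspe1, whose control replicate 1 value lay among the conditional ones, by 0.09. Their differences from the mean of the controls were -1.23 ± 0.470 (SE) and -0.86 ± 0.471 (SE).

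All 10 members were lower in conditional than in control cells on average, with a median difference of -1.27, beside 0.03 over all genes. For 7 of 10, every conditional array lay below both controls, where 13.1 percent of all genes did; the exceptions were Hspa8, Dnaja1 and Hspe1. In the limma fit over all genes, 1 of 10, Hspb1, was past an adjusted p of 0.05 as lower, where 0.0451 percent of all genes were; since the members were chosen on this contrast, nothing is read from that count. That call lay at the threshold. After another quantile normalization 0 of 10 passed as lower (6 at an unadjusted p under 0.05, and 0.0752 percent of all genes passed as lower). With array weights 0 of 10 members and 0 of all genes passed as lower (6 members at an unadjusted p under 0.05). After median centring 1 of 10 passed, Hspa1a and no longer Hspb1 (0.0702 percent of all genes), and with a variance trend Hspb1 and Hspa1a did (0.0602 percent). Without any 1 conditional array no gene passed in either direction, and 4, 3 and 5 members were at an unadjusted p under 0.05 without replicates 1, 2 and 3. In the main fit 2892 of 19937 genes were at that level. Shares under the alternatives are not given, and nothing is read from the members' unadjusted counts. Of the 18 probe sets annotated to the 10 symbols alone, 18 were lower in conditional cells and 18 were highest on control replicate 2.

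The members differed in how far they lay from each control. All 10 were highest on control replicate 2 of the 5 arrays, where 22.0 percent of all genes were, and all 10 were higher there than on control replicate 1, where 60.1 percent were. All 10 were lower in conditional cells against that array alone, where 53.9 percent of genes were. The median against control replicate 2 was -1.78, and against control replicate 1 it was -0.57, with 8 of 10 lower, where 38.7 percent of genes were. The same 8 were lower against each control alone, where 24.2 percent of genes were. Over all genes these medians were -0.02 and 0.09. Without control replicate 1 the limma fit had 9 of 10 members past the threshold as lower, all but Hspa8, where 2.77 percent of genes were, and without control replicate 2 it had 5 of 10 (Hspb1, Hspa1a, Hsph1, Dnajb1 and Bag3), where 16.5 percent were. As higher, no member passed in either fit, where 3.34 and 11.0 percent of genes did. In both fits the lone control is assumed to vary like the conditional arrays. The members were also chosen on the contrast between the groups, and all 10 were highest on control replicate 2. Nothing is therefore read from the members' counts in these fits, with or without the shares of all genes beside them. Hspb1, Hspa1a and Bag3 were the 3 members lower by more than 1 on the log2 scale against each control alone, a limit that 0.471 percent of all genes met.

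**Figure D2:**
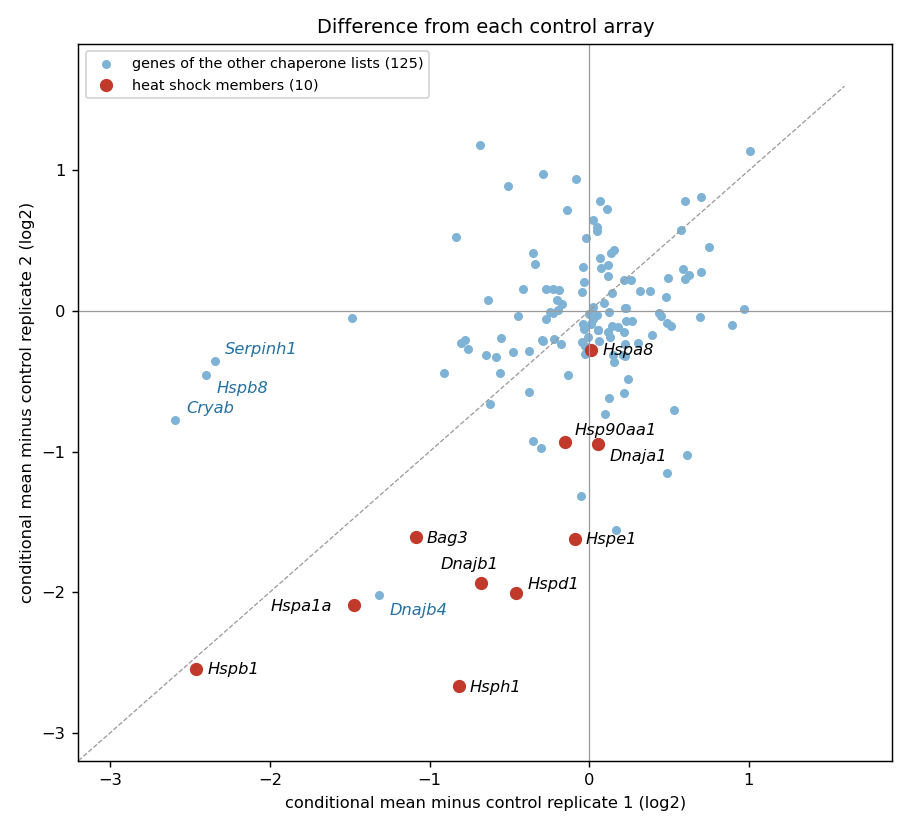
Conditional mean minus control replicate 1 (horizontal axis, log2) against conditional mean minus control replicate 2 (vertical axis, log2) for the 10 members (large points) and 125 genes of the other chaperone lists (small points); the dashed line marks equal differences. Hspb1 lies close to the line at -2.46 and -2.55, the other members lie farther below it, and Cryab, Hspb8 and Serpinh1 lie far to the left, with large differences from control replicate 1 and small ones from control replicate 2.

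No gene of the other chaperone lists passed the test. In 10 further lists, grouped by function, 125 of 130 genes were measured. In limma, 0 passed an adjusted p of 0.05 in either direction. Of all genes, 0.0451 percent passed as lower and 0.371 percent as higher. At an unadjusted p under 0.05 (limma) were 22 of the 125 (13 lower and 9 higher), and 2892 of all 19937 genes. The median difference of the 125 was -0.02, with 67 lower and 58 higher, and the 10 lists share 9 genes among them. The J-domain gene Dnajb4, another stress-inducible HSP70 partner, was nearest to the members: it read 9.82, 9.82 and 9.56 on the conditional arrays and 11.05 and 11.75 on the controls, a difference of -1.67 ± 0.238 (SE; limma, adjusted p = 0.0761). It was the 1 gene of the 125 that was lower by more than 1 against each control alone.

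Among the 9 other small heat shock protein genes the median was -0.12. Cryab (alpha-B crystallin) and Hspb8, which partners with Bag3, were singled out after their values were seen. Cryab read 8.01, 7.85 and 7.52 on the conditional arrays, 10.39 on control replicate 1 and 8.57 on control replicate 2, and Hspb8 read 8.42, 8.16 and 8.17 against 10.65 and 8.70. Both were thus high on control replicate 1, the array with the high stromal and epithelial signal, and unlike Hspb1 stood only 0.78 and 0.46 above the conditional mean on control replicate 2. Hspb11 and Hspb6 had the smallest p of that list, at -0.48 and -0.45 (limma, adjusted p = 0.178 and 0.212). Serpinh1, the collagen chaperone HSP47, also named after its values were seen, read 10.31 on control replicate 1 and 8.32 on control replicate 2 against 8.33, 7.99 and 7.59.

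Of 8 other HSP70 and HSP110 genes, 6 were lower and 2 higher, with a median of -0.30. Hspa1l, a relative of Hspa1a whose probe set may share signal with it, was at -0.64 (limma, adjusted p = 0.0834) and Hspa2 at -0.48 (limma, adjusted p = 0.289). The 20 other J-domain genes had a median of 0.24, with 13 higher, Dnajc2 among them at 0.49 (limma, adjusted p = 0.299). Among 16 co-chaperones of HSP90, with a median of -0.09, St13, the HSP70-interacting protein HIP, was at -0.50 and Sugt1, an HSP90 adaptor, at 0.57 (limma, adjusted p = 0.140 and 0.159). The 6 other BAG and exchange factor genes had a median of 0.18, with Hspbp1 at 0.36 and Bag4 at 0.41 (limma, adjusted p = 0.294 and 0.337). Hsp90ab1 and Hsf1 were not analysed here. Of 6 genes of heat shock factors and of proteins named for binding them, Hsf2 was at 0.69 (limma, adjusted p = 0.171), reading 8.84, 9.23 and 8.87 against 8.38 and 8.20. Hsf2bp, one of the binding proteins, was at 0.20 (limma, adjusted p = 0.719).

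Further genes known as HSF1 targets, 17 of 20 measured, had a median of -0.33 and 14 were lower. As for the members, the distance was larger to control replicate 2, with a median of -0.70, than to control replicate 1, at -0.02, and 12 of 17 were highest on control replicate 2. Ahsa1, which speeds the HSP90 cycle, was at -0.64 (limma, adjusted p = 0.249). Zfand2a and Cacybp, named after their values were seen, read 12.53 and 11.59 on control replicate 2 and stayed at or below 11.04 and 10.40 on the other 4 arrays.

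Lists of endoplasmic reticulum, mitochondrial and cytosolic chaperonin genes had medians near 0 against the mean of the controls. The 25 genes of the endoplasmic reticulum had a median of -0.002, with Hspa5 (BiP, the HSP70 of that compartment) at -0.07, Hsp90b1 at -0.13 (limma, adjusted p = 0.842 and 0.857), Edem1 at 0.60 (limma, adjusted p = 0.161) and Ero1a, the oxidase that drives disulfide formation, at 1.07 (limma, adjusted p = 0.0617). The 12 mitochondrial genes beside Hspd1 and Hspe1 had a median of -0.06. Hspa9, the mitochondrial HSP70, was at -0.25 and Trap1, the mitochondrial HSP90, at -0.33 (limma, adjusted p = 0.378 and 0.250), and none of the 12 was highest on control replicate 2. The 15 genes of the cytosolic chaperonin TRiC and of prefoldin had a median of 0.01, with Vbp1 at 0.44 and Pfdn4 at 0.18 (limma, adjusted p = 0.365 and 0.511). Of those 15, 8 were highest on control replicate 2, as were 5 of the 25 and 22.0 percent of all genes. Against control replicates 1 and 2 alone, the medians were -0.14 and 0.16 for the endoplasmic reticulum and -0.19 and 0.06 for mitochondria. For TRiC and prefoldin they were 0.12 and -0.11.

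**Figure D3:**
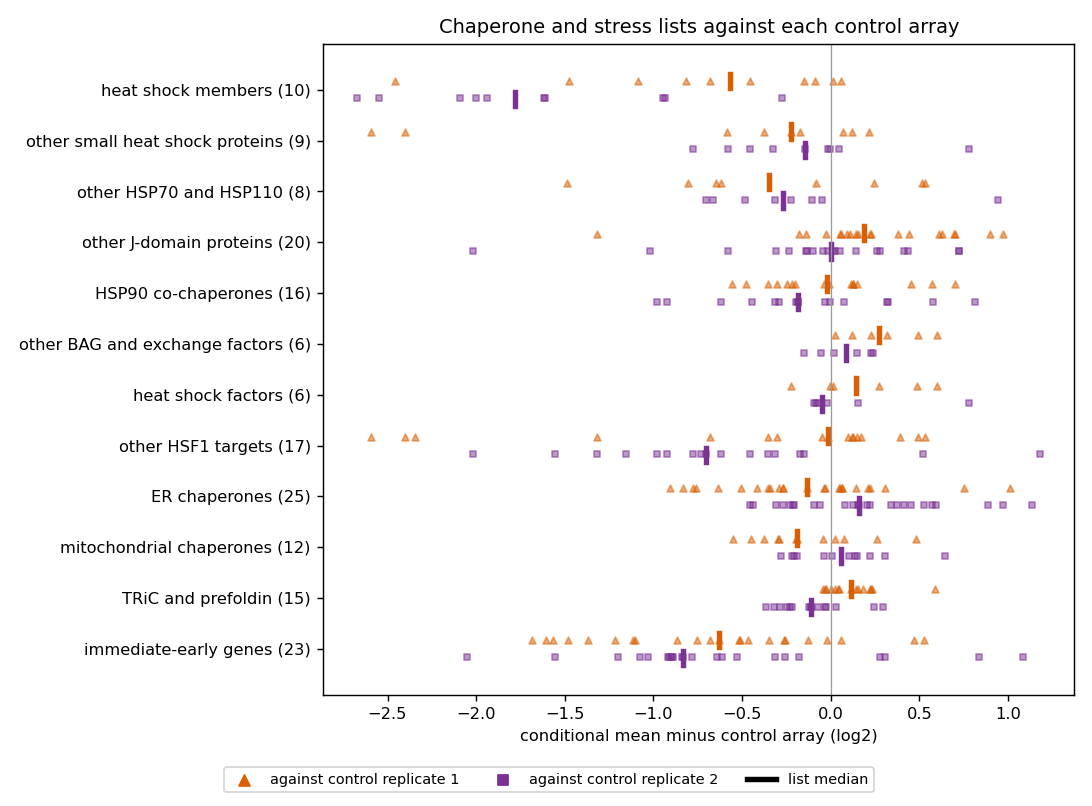
Conditional mean minus control array (log2, horizontal axis) for every gene of the members and 11 other lists, with triangles against control replicate 1, squares against control replicate 2, thick ticks at the list medians and the number of measured genes in brackets. The members' medians are at -0.57 and -1.78, those of the other HSF1 targets are at -0.02 and -0.70, the immediate-early genes centre left of 0 against both controls (-0.63 and -0.84), and the medians of the remaining lists lie between -0.35 and 0.27.

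Among immediate-early genes, a list chosen with earlier results of these data known, Fos passed the test. This gene, which encodes a subunit of AP-1, read 10.10, 9.99 and 9.68 on the conditional arrays and 11.49 and 11.48 on the controls, and fell by 1.56 ± 0.156 (SE; limma, adjusted p = 0.0448). That call was lost after another quantile normalization (limma, adjusted p = 0.0525) and with array weights (limma, adjusted p = 0.167). A block by replicate number (limma, adjusted p = 0.109) and omission of any 1 conditional array also lost it. Fos was the 1 of 23 listed genes that passed as lower, where 0.0451 percent of all genes did. On average 20 of the 23 were lower, where 8793 of all 19937 genes were, and the list median was -0.69 beside 0.03 over all genes. Against control replicates 1 and 2 alone the medians were -0.63 and -0.84; whether these differ was not tested. The part of cell handling in the members' levels was not tested.

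Promoter windows of 300 bases, 250 before and 50 after the annotated start (RefSeq, GRCm38.p6), were searched for heat shock elements, the inverted GAA repeats that HSF1 binds. An element of 2 units was GAANNTTC or TTCNNGAA, and an element of 3 units carried a further unit after the same gap (NNGAA after the former, NNTTC after the latter). Both strands were covered, overlapping matches were counted, and a 3-unit element contains 2-unit ones. Of all 32851 windows, 15.1 percent held a 2-unit element and 0.603 percent a 3-unit element. Counted by gene, 15.4 percent of 15613 measured genes held a 2-unit element in at least 1 window, and 0.564 percent a 3-unit element. Windows were listed for 8 of the 10 members, all but Hspa8 and Hsp90aa1. Of those 8, 7 held a 2-unit element in at least 1 window and 3 (Hsph1, Hspe1 and Hspd1) a 3-unit element; Dnajb1 held neither, which says only that these letters are not in its windows.

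The stretches printed here show where these letters lie in Hspb1 and Hspa1a, the members with the largest differences, in Dnaja1, whose groups overlapped, and in Hspe1 and Hsph1, which hold 3-unit elements, with 2-unit elements in capitals and the rest in lower case, each on its gene's strand. The first 4 are the 150 bases before the first annotated start, and the last is a short stretch after it.
Hspb1 (chr5:135887769-135887918, plus strand): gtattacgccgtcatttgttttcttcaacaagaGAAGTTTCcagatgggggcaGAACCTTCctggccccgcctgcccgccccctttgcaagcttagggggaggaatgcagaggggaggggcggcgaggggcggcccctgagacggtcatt
Hspa1a (chr17:34972157-34972306, minus strand): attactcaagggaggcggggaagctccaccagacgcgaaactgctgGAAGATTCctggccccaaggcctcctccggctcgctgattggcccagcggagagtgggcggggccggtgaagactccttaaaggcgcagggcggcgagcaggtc
Dnaja1 (chr4:40722318-40722467, plus strand): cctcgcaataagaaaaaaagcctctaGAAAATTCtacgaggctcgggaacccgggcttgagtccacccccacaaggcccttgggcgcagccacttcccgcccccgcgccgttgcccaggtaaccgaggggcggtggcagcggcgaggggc
Hspe1 (chr1:55087998-55088147, plus strand): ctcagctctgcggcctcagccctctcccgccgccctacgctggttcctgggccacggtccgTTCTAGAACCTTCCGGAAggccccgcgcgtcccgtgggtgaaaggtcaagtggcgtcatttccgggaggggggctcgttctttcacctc
Hsph1 (chr5:149636287-149636308, minus strand): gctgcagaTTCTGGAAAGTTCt

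Hspb1 held 2 separate 2-unit elements, 117 and 97 bases before the start, and Hspa1a held 1, 104 bases before it. Hspe1 held a run of 3 overlapping 2-unit elements from 89 bases before its start, and since its window shares 285 bases with a window of Hspd1, which runs the other way, the same run belongs to both genes of the chaperonin. Hsph1 had its 3-unit element 37 bases after the first of its annotated starts. Hspe1, Hspd1 and Hsph1, which hold 3-unit elements, were higher on control replicate 2 than on control replicate 1 by 1.53, 1.55 and 1.85. Dnaja1, Hspa1a, Bag3 and Hspb1, with 2-unit elements only, were higher there by 1.01, 0.62, 0.52 and 0.09. Dnajb1, with no match, was higher by 1.26. Whether the elements bear on these differences was not tested.

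Genes that held a 3-unit element centred where other genes with a window did. Of 15613 measured genes with a window, 88 held such an element, and their median difference was 0.04, beside 0.03 for all genes with a window. Of the 88, 1 passed as lower and 0 as higher in limma, where 0.0576 percent and 0.371 percent of genes with a window passed. At an unadjusted p under 0.05 (limma) were 8 lower and 5 higher of the 88, and 2342 of the 15613 genes with a window. The gene that passed was Krt20, a keratin of the gut lining, which fell by 1.67 ± 0.144 (SE; limma, adjusted p = 0.0327) and is itself one of the epithelial markers. That call was lost with array weights (limma, adjusted p = 0.108) and with a block by replicate number (limma, adjusted p = 0.0683). Omission of any 1 conditional array also lost it (limma, adjusted p from 0.171 to 0.267). Of the 88, 23.9 percent were highest on control replicate 2, beside 21.4 percent of all genes with a window. The 88 include 3 members (Hsph1, Hspe1 and Hspd1), which were chosen on this contrast. Of the 85 genes left without them, 21.2 percent were highest on control replicate 2 and 11 were at an unadjusted p under 0.05 (limma).

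Likeness to Hspb1 was measured over all genes, though the 5 nearest were named only among protein-coding genes without predicted (Gm or Rik) names. By the root mean square difference between profiles, each centred on its own mean over the 5 arrays, the 5 nearest genes to Hspb1 were Lypd8 (0.221), Spon2 (0.237), Igfbp4 (0.272), Pcolce2 (0.280) and Scd2 (0.353). Lypd8 encodes a secreted protein of the colon epithelium that keeps bacteria off the gut wall, Spon2 and Pcolce2 encode matrix proteins, Igfbp4 a secreted binder of insulin-like growth factors and Scd2 a fatty acid desaturase. Lypd8, the nearest, read 9.38, 9.09 and 8.59 on the conditional arrays and 11.28 and 11.01 on the controls. Among the members the nearest was Hspa1a, which ranked 17 of all genes at 0.461, followed by Bag3 at rank 63 (0.624), and the farthest was Hspa8 at 1.20.

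Many stromal, epithelial, smooth muscle and endothelial markers shared the highest or the lowest array of Hspb1 within the conditional group. Hspb1 was highest on conditional replicate 1 and lowest on conditional replicate 3, and so were 10 of 10 stromal markers. For the 18 epithelial markers, 14 were highest on the former and 11 lowest on the latter. These counts were 7 and 7 for 8 smooth muscle markers, and 7 and 5 for 8 endothelial markers. For 9 B and plasma cell markers they were 4 and 7, and for 6 mast cell markers 3 and 2. The other way, 9 of 10 T cell markers and 10 of 12 myeloid markers were highest on conditional replicate 3. This order rests on 3 arrays, and no share over all genes is given beside it. The mean of the stromal markers was 10.25, 9.92 and 9.01 on conditional replicates 1, 2 and 3, and 11.98 and 10.34 on control replicates 1 and 2. Against control replicate 2 alone, 10 of 10 stromal markers were lower in conditional cells (median -0.57), as were 15 of 18 epithelial markers (median -0.16). Against control replicate 1 alone all of both lists were lower, with medians of -2.44 and -2.15. In the main limma fit, 2 of 18 epithelial markers, Krt20 among them, and 0 of 10 stromal markers passed as lower. Of all genes, 0.0451 percent did. Dcn and Fn1, the stromal markers with the highest signal, read 12.80 and 11.41 on control replicate 2, and their conditional values ran from 11.90 to 12.79 and from 10.31 to 11.64. The epithelial mean was 7.91, 7.67 and 7.49 on the conditional arrays, 9.68 on control replicate 1 and 8.22 on control replicate 2, with Krt8 and Car1 the brightest markers. T cell markers gave 11.12, 11.18 and 11.32, with 8.70 on control replicate 1 and 11.46 on control replicate 2, Cd2 and Cd3e being the brightest. The part of stromal or epithelial RNA in the level of Hspb1 was not tested beyond these values.

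The other 9 members varied less within the conditional group. Their mean centred level was -0.49, -0.40 and -0.37 on conditional replicates 1, 2 and 3, 0.10 on control replicate 1 and 1.15 on control replicate 2. Of the 10 members, 6 had an SD over the conditional arrays below the median over all genes, 0.118. On control replicate 2, where the 9 stood highest, smooth muscle markers (Acta2 and Tagln brightest) had a summed linear signal of 1193, within the conditional range of 1101 to 2538. Endothelial markers (Pecam1 and Eng) were at a mean of 7.34 there, against 8.34, 8.07 and 7.64. B and plasma cell markers (Jchain and Cd79b) were at a mean of 9.02 on that array, against 8.64, 8.72 and 8.19 on the conditional arrays and 9.03 on control replicate 1. By summed linear signal they were at 5939 on control replicate 2, within the conditional range of 4282 to 9353, and at 10833 on control replicate 1. Myeloid markers (Cd68 and Fcer1g; mean 6.84, against 7.59, 7.62 and 8.36) and mast cell markers (Kit and Tpsb2; mean 5.43, against 6.01, 5.87 and 6.05) were lower on control replicate 2 than on any conditional array, and were at 6.68 and 5.58 on control replicate 1.

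**Figure D4:**
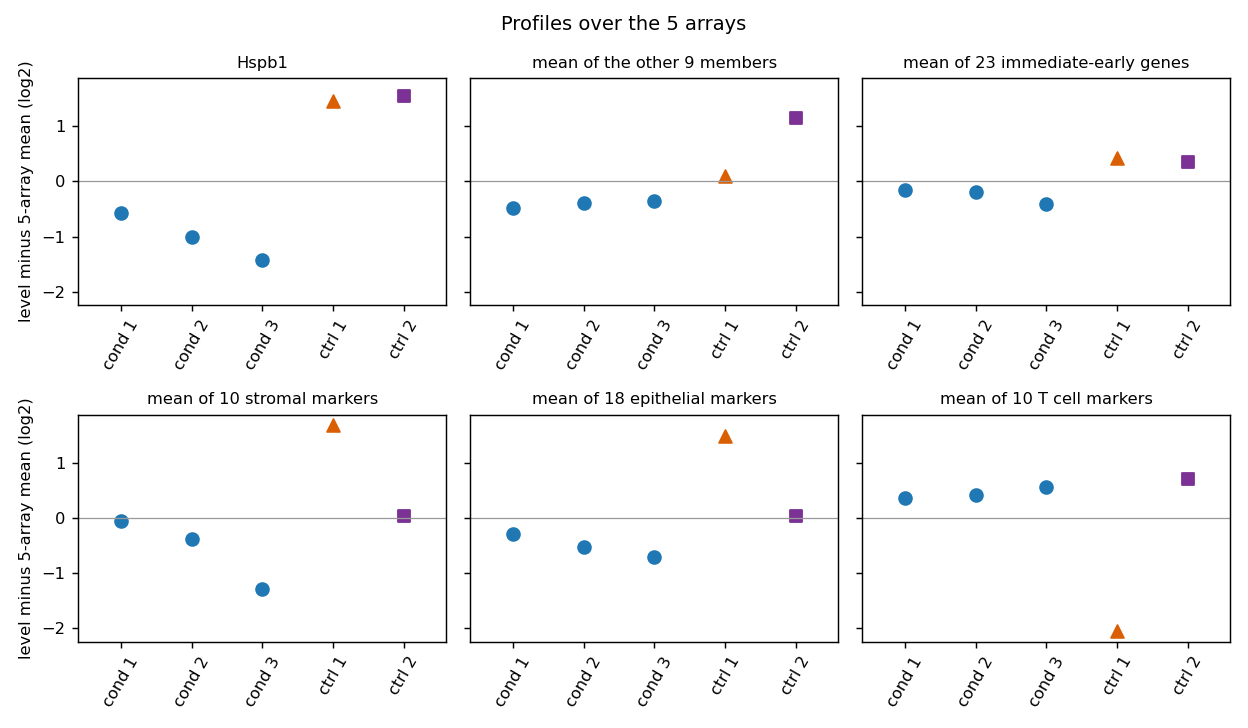
Level minus the mean over the 5 arrays (log2, vertical axis) of Hspb1, of the mean of the other 9 members, of 23 immediate-early genes, and of the stromal, epithelial and T cell markers, on each array; circles are conditional arrays, the triangle control replicate 1 and the square control replicate 2. Hspb1 is high on both controls (1.46 and 1.55), the other members stand out on control replicate 2 (1.15), and the T cell markers are low on control replicate 1 (-2.05).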

How the data were processed

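The deposited values were log2 signals of 34760 probe sets on 5 arrays, which the authors made with RMA and oligo according to the submitters' processing notes. RMA subtracts background and normalizes the arrays together, and it compresses differences of dim probe sets. RNA had an integrity number of at least 9.2, per the labels' protocols. For tool versions and the genome build, nothing is stated in the labels. The platform annotation gave 1 symbol for 21640 probe sets, several for 1321 and none for 11799.

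For each of 19937 genes the brightest single-symbol probe set (by mean signal) was taken. The groups, read from the genotype labels, were set against each other in limma 3.58.1 (R 4.3.3; lmFit and eBayes without covariates, 3 residual degrees of freedom, Benjamini-Hochberg over all genes, threshold 0.05), tested on simulated data. Precision is limited by the number of arrays. Members and lists were chosen with earlier results of these data known. Beside the members, the text names Hspa5, Hsp90b1, Hspa9, Hsf2 and Ppp3r1; in each stress list and among promoter-element genes those past the threshold, otherwise in a list the 2 of smallest p; the 5 genes nearest to Hspb1; and the 2 brightest markers of each marker list. Others are marked in the text. Some listed genes are not reported here, and 1 symbol was updated (Ero1l to Ero1a). Alternatives were 2 normalizations, 2 filters on dim genes, averaged probe sets, a variance trend, weights per array, a replicate block, omission of single arrays and the 2-unit element.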

Additional observations from a re-analysis of the deposited data

How the results depend on the processing

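With 3 against 2 arrays and 2 unlike controls, the differences of all members but Hspb1 moved most when 1 control was left out. All 10 members stayed lower in conditional cells under every alternative except without control replicate 2, where Hspa8 and Dnaja1 turned to 0.01 and 0.06. Hspb1 was between -2.72 and -2.29 throughout. Counts at an unadjusted p under 0.05 in this section stand without a share over all genes under the same alternative. In the main fit 2892 of 19937 genes were at that level. In limma the number of members past the threshold as lower was 0 after another quantile normalization and with array weights (6 at an unadjusted p under 0.05 in each) and 2, Hspb1 and Hspa1a, with a variance trend; it stayed at 1 after median centring, but there the gene was Hspa1a. Leaving out 1 array gave from 0 to 9 members, with a median from -1.78 to -0.57; it was 0 without any 1 conditional array (3 to 5 at an unadjusted p under 0.05).

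Leaving out 1 array gave from 0 to 17 lower and from 0 to 14 higher genes among 125 in the other chaperone lists, from 0 to 12 lower and from 0 to 2 higher of 23 immediate-early genes, and from 0 to 13 lower and from 0 to 7 higher of 88 genes with a 3-unit element, the high ends coming without control replicate 2 (12 lower immediate-early genes also without control replicate 1). Of all genes, 16.5 percent passed as lower and 11.0 percent as higher without control replicate 2, and 2.77 and 3.34 percent without control replicate 1. Fos did not pass after another quantile normalization, with array weights or with the replicate block (0 immediate-early genes lower, with 13, 13 and 10 at an unadjusted p under 0.05). Krt20 did not pass with array weights or the block, and was not tested where genes below the median level were left out, so 0 genes with a 3-unit element passed there (7, 7 and 6 at an unadjusted p under 0.05 as lower). The 2398 genes with a 2-unit element gave 4 lower and 5 higher. Ppp3r1 ranged from -0.25 to 0.15 (0.003 without conditional replicate 1), Hsp90b1 from -0.42 to 0.16 and Hsf2bp from -0.082 to 0.49 when 1 array was left out.

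Whether equal replicate numbers pair the samples is not given in the labels, and was not shown by the data: deviations from the group means correlated at 0.400 for number 1 and -0.287 for number 2, but with 2 controls their deviations mirror each other, so these values rest on the contrast between the controls alone. With the replicate block, which leaves conditional replicate 3 without a partner, the members' median was -1.32 and Hspb1 was at -2.29.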
